A study of Mus musculus with 7 samples.

Results

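Aminoacyl-tRNA synthetases are the enzymes that join each amino acid to its transfer RNA before the ribosome can use it. Their transcripts were examined in 5 libraries of calreticulin (CRT) knockout and 2 libraries of wild type D3 mouse embryonic stem cells, an established line. The 32 genes were chosen by name, 18 for cytosolic and 14 for mitochondrial enzymes, and 31 were analysed, 17 cytosolic and 14 mitochondrial, of 18194 genes with a symbol on the array. Dars was not analysed here. They are represented by 60 probe sets, of which 52 passed the signal filter, and every one of the 31 genes kept at least 1 probe set. The 8 probe sets under the filter had signals of at most 119.4.

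The knockout and wild type groups share the D3 background and differ, per the labels, in the loss of calreticulin, the product of Calr, which binds calcium and helps glycoproteins fold in the endoplasmic reticulum. Each library was a pool of replicate cultures harvested together, hybridised to 1 Affymetrix Mouse 430 2.0 array. The labels call the libraries biological replicates, but give no culture medium or feeder layer and do not say how many knockout clones were used, so libraries of 1 clone may be among them. In such bulk samples, fewer cells of a type and less RNA per cell cannot be told apart.

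Cells keep separate sets of these enzymes for the cytosol and for mitochondria, nearly all encoded in the nucleus by separate genes; Gars and Kars serve both places from a single gene. Several cytosolic enzymes sit together in a large multi-synthetase complex with scaffold proteins. The others are called free here, meaning only that they are outside that complex. Class I and class II enzymes have unrelated catalytic domains. When uncharged transfer RNA accumulates or proteins misfold, phosphorylation of the initiation factor eIF2 favours translation of the transcription factor ATF4, and many cytosolic synthetase genes are known ATF4 targets. ATF4 acts with C/EBP proteins at a composite C/EBP-ATF response element.

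Promoter windows from 250 bases before to 50 bases after the start were given by RefSeq (build GRCm38.p6) for 25 of the 32 genes, 12 cytosolic (Dars included) and 13 mitochondrial. The core of the C/EBP-ATF element, searched as TGATGNAA on both strands, was present in the windows of 5 of 12 cytosolic genes (41.7%) and of 0 of 13 mitochondrial genes. It was present in 3.97% of all 32851 promoter windows, and in 8 of 22 amino acid response genes with a window (36.4%). The E-box CACGTG, a site for MYC proteins, was present in 4 of 12 cytosolic genes (33.3%), 1 of 13 mitochondrial genes (7.69%) and 7.15% of all windows. For both motifs a gene was counted if any of its windows held a match, while the share of all windows counts single windows. The gene and window shares are thus in unlike units. None of the matches to the first motif overlapped an E-box. A match describes letters in the window and does not show that a factor binds.

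Stretches around the match in the 5 windows with the C/EBP-ATF core are shown because no mitochondrial window held it; each runs 5′ to 3′ on the strand of its gene, and capitals mark the core or its reverse complement. Aars (plus strand, chr8:111033700-111033888) holds it starting 112 bases before and 10 bases into the transcript. Gars (plus strand, chr6:55037941-55038008) holds it 30 bases before the start, and Tars (minus strand, chr15:11399636-11399703) 15 bases before. Iars (plus strand, chr13:49682107-49682174) and Yars (plus strand, chr4:129189876-129189943) hold it from base 8 and base 4 of the transcript.
Aars: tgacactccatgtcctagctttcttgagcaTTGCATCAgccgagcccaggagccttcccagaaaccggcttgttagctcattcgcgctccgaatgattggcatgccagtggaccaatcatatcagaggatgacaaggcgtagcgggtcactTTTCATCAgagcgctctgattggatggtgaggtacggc
Gars: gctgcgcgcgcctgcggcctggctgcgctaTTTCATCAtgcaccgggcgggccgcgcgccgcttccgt
Tars: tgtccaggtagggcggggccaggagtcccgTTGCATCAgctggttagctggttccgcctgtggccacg
Iars: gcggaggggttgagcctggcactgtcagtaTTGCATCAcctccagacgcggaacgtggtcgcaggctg
Yars: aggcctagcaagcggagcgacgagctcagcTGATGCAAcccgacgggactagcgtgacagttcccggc

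The libraries bear on every value below. Calr had signals of 577 to 1064 in knockout libraries and of 10839.5 to 12460.0 in wild type libraries (log2 difference -3.68, SE 0.30, limma adjusted p = 0.00595), which fits the labels. Knockout libraries 2 and 3 correlated at 0.985 over the tested probe sets and at 0.843 to 0.902 with the other libraries, which correlated at 0.920 to 0.972 among themselves. Of 10 stem cell markers 9 passed the signal filter. Their summed signal was lowest in knockout libraries 2 and 3, at 74202 and 79237. It was 82590 to 107241 in the other knockout libraries, and 81278 and 93398 in wild type libraries. Of 11 fibroblast and feeder cell markers 10 passed, and none was at 0. Their sum was 25009 and 25728 in knockout libraries 2 and 3, 10678 to 14731 in the other knockout libraries, and 15377 and 15464 in wild type libraries. Bright genes weigh most in these sums, such as Fn1 with 15808 and 17283 in knockout libraries 2 and 3. Tdgf1, a stem cell marker, was highest there (14287 and 15929). In these libraries 2 and 3 of 9 stem cell markers were above the wild type mean, and 10 and 9 of 10 fibroblast and feeder cell markers. Of all 13120 genes, 6303 and 6579 were. The part of such cells in the synthetase values was not tested, so values are also given without knockout libraries 2 and 3.

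No synthetase transcript passed the threshold between knockout and wild type cells. On the log2(signal + 20.2) scale, 0 of 52 tested probe sets had a limma adjusted p under 0.05 (lowest 0.575), against 0.0296% of all tested probe sets. At an unadjusted p under 0.05 there was 1 of 52, against 8.42% of all tested probe sets. Described by the brightest probe set of each gene, 0 of 31 genes reached that level, against 7.60% of 13120 genes. The median difference, knockout minus wild type, was -0.05 over the 17 cytosolic genes and 0.11 over the 14 mitochondrial genes, beside -0.004 over all genes. Neither median kept its sign when a wild type library was left out. The cytosolic one was 0.27 without wild type library 1, and the mitochondrial one -0.16 without wild type library 2. The mitochondrial median was also negative without knockout libraries 2 and 3 (-0.07) and without knockout library 3 alone (-0.04). It was -0.03 with quantile normalization, -0.01 with array median centring and -0.07 with array weights. The cytosolic median was 0.04 with quantile normalization. Every knockout value was below both wild type values for 1 of 31 genes, Rars, where the background is 7.44%, and above both for 0 of 31, where it is 6.41%. Without knockout libraries 2 and 3, the remaining knockout libraries lay above both wild type libraries for 1 gene, Nars2, and below for 1, again Rars, against backgrounds of 10.4% and 10.8%. These shares are at or under those of the array as a whole.

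**Figure D1:**
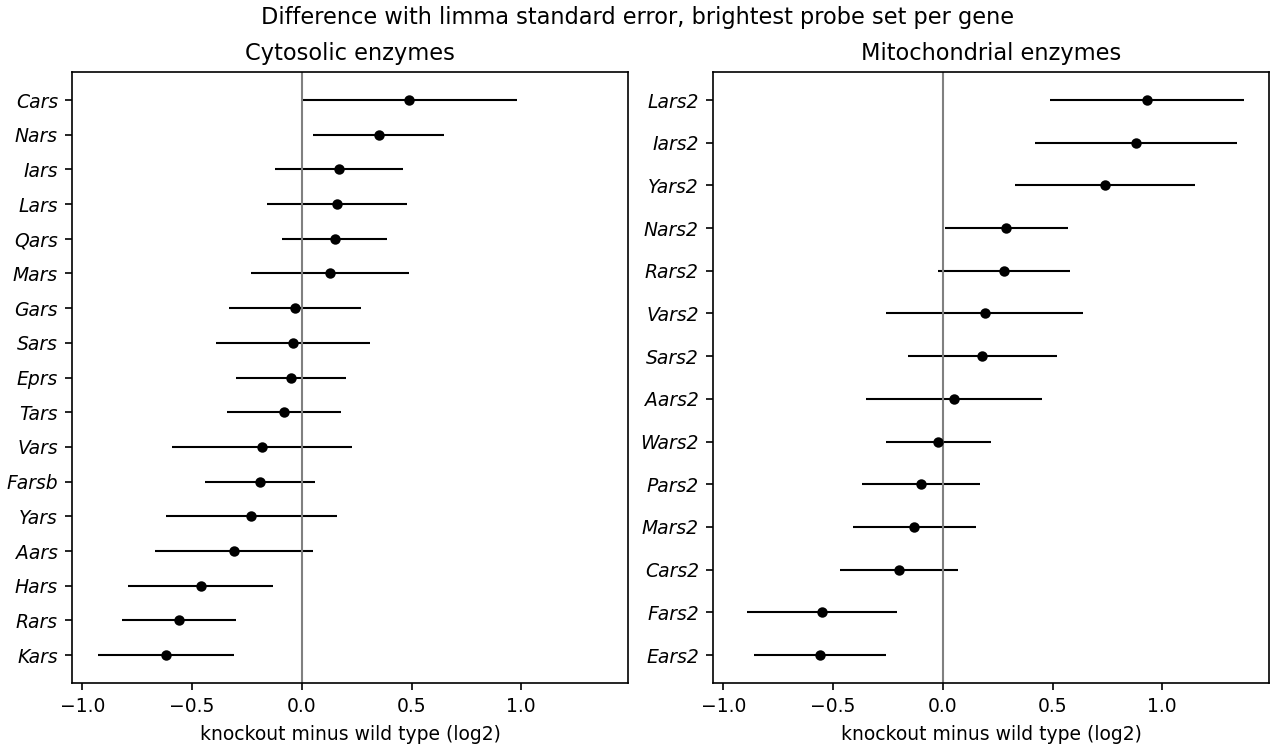
Knockout minus wild type difference (x axis, log2) for 17 cytosolic (left) and 14 mitochondrial (right) synthetase genes, each with the brightest probe set; points are limma estimates from 5 knockout and 2 wild type libraries and bars are 1 standard error. Differences ran from -0.62 for Kars to 0.49 for Cars among cytosolic genes and from -0.56 for Ears2 to 0.93 for Lars2 among mitochondrial genes.

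Among the enzymes of the multi-synthetase complex, the lowest values relative to wild type were those of the arginine and lysine enzymes. Rars had signals of 5652, 3882, 3705, 5491 and 5504 in knockout libraries 1 to 5, against 6692 and 7426 in wild type libraries. The groups did not overlap, and knockout libraries 2 and 3 were the lowest. Its difference was -0.56 (SE 0.26, limma adjusted p = 0.575), and -0.34 (SE 0.19) without those libraries. Kars had 8249.5, 4777, 4437, 8204 and 6214 in knockout libraries, against 11005 and 8229.5 in wild type libraries. Knockout library 1 reached the lower wild type library, so the groups touch. The difference was -0.62 (SE 0.31, limma adjusted p = 0.575), and -0.34 (SE 0.22) without knockout libraries 2 and 3.

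The isoleucine, leucine and methionine enzymes of the complex shared another order of libraries. Iars had 4859, 7918, 7957, 7662 and 4890.2 in knockout libraries 1 to 5, against 6485 and 5089 in wild type libraries. Lars had 3631, 6138.5, 6236.5, 7385 and 3901 in knockout libraries, against 4898 and 4536 in wild type libraries. Mars had 2875, 5857, 5671.5, 6193 and 3261 in knockout libraries, against 4837 and 3545 in wild type libraries. In each of these 3 genes knockout libraries 2, 3 and 4 were above both wild type libraries and knockout libraries 1 and 5 were below both, so the group differences stayed at 0.17, 0.16 and 0.13. Eprs, which encodes a fused enzyme for glutamate and proline, and Qars, the glutamine enzyme, differed by -0.05 (SE 0.25) and 0.15 (SE 0.24). Their other tested probe sets gave differences up to 0.28 and from -0.04 to 0.48. Over the 7 measured genes of the complex the median difference was 0.13, and -0.02 without knockout libraries 2 and 3.

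**Figure D2:**
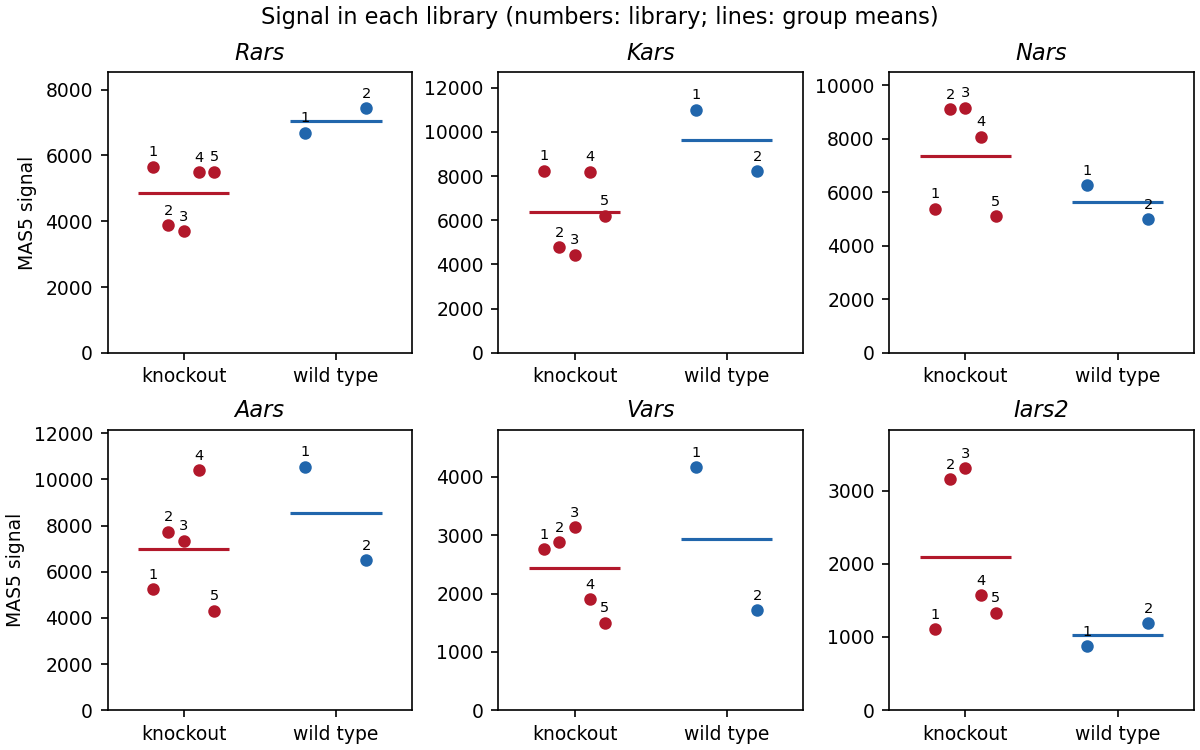
MAS5 signal (y axis, linear, from 0) in each of 5 knockout (left, red) and 2 wild type (right, blue) libraries for 6 synthetase genes; numbers are library numbers and horizontal lines are group means. Rars is the only one of the 6 whose groups do not overlap, and Aars and Vars show a wide gap between the wild type libraries.

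The free cytosolic enzymes also overlapped between genotypes. The gap between the wild type libraries exceeded the group difference in 7 of 10 genes, near the 60.9% of all genes. Aars, for alanine, had 5237.5, 7735, 7338, 10390.1 and 4303 in knockout libraries 1 to 5, against 10549 and 6499.8 in wild type libraries. Gars, for glycine, had 6017, 8582, 8711, 9847 and 5572 in knockout libraries, against 9752 and 6089 in wild type libraries. Yars, for tyrosine, had 1053, 1508, 1456, 2027 and 919.6 in knockout libraries, against 2247 and 1109 in wild type libraries. In all 3 the high libraries were knockout library 4 and wild type library 1, and knockout libraries 1 and 5 lay below both wild type libraries. The group differences were -0.31 (SE 0.36), -0.03 (SE 0.30) and -0.23 (SE 0.39), while wild type library 1 exceeded wild type library 2 by 0.70, 0.68 and 1.01 on the log2 scale.

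Vars, for valine, had 2757, 2884, 3141, 1906 and 1499 in knockout libraries, against 4164.5 and 1711 in wild type libraries, a gap of 1.27 between the wild type libraries and a group difference of -0.18 (SE 0.41). Sars, for serine, was similar, with a gap of 0.84 and a difference of -0.04 (SE 0.35). Cars, for cysteine, had 1118, 2405, 2516, 1467.5 and 855 in knockout libraries, against 1639.8 and 719 in wild type libraries. Knockout libraries 2 and 3 were the high ones, and the difference of 0.49 (SE 0.49) was 0.04 (SE 0.39) without them. Nars, for asparagine, had 5383, 9103, 9158, 8081 and 5119.7 in knockout libraries, against 6274 and 4991 in wild type libraries (difference 0.35, SE 0.30, limma adjusted p = 0.668). It was high in knockout libraries 2, 3 and 4, overlapped wild type in the others, and differed by 0.11 (SE 0.25) without knockout libraries 2 and 3.

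Hars, for histidine, ran the other way in those libraries, with 2156, 1767, 1386, 2990.4 and 2726 in knockout libraries and 2995 and 2882 in wild type libraries. Knockout library 4 lay within the wild type values and the remaining knockout libraries below them (difference -0.46, SE 0.33; -0.17, SE 0.24 without knockout libraries 2 and 3). Farsb, the beta subunit of the phenylalanine enzyme, differed by -0.19 (SE 0.25), and its 4 probe sets by -0.92 to -0.19. The gene for its alpha subunit, Farsa, which lies near Calr on chromosome 8, had 1629, 1150.4, 1100.3, 491 and 637 in knockout libraries, against 2189.9 and 568 in wild type libraries. Tars, for threonine, differed by -0.08 (SE 0.26) and was highest in knockout library 4 at 5700.4. Over the 10 free cytosolic genes 8 differences were negative, with a median of -0.13 and of -0.17 without knockout libraries 2 and 3. The count was 5 of 10 after quantile normalization and 3 of 10 without wild type library 1, and 6600 of all 13120 genes were negative.

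**Figure D3:**
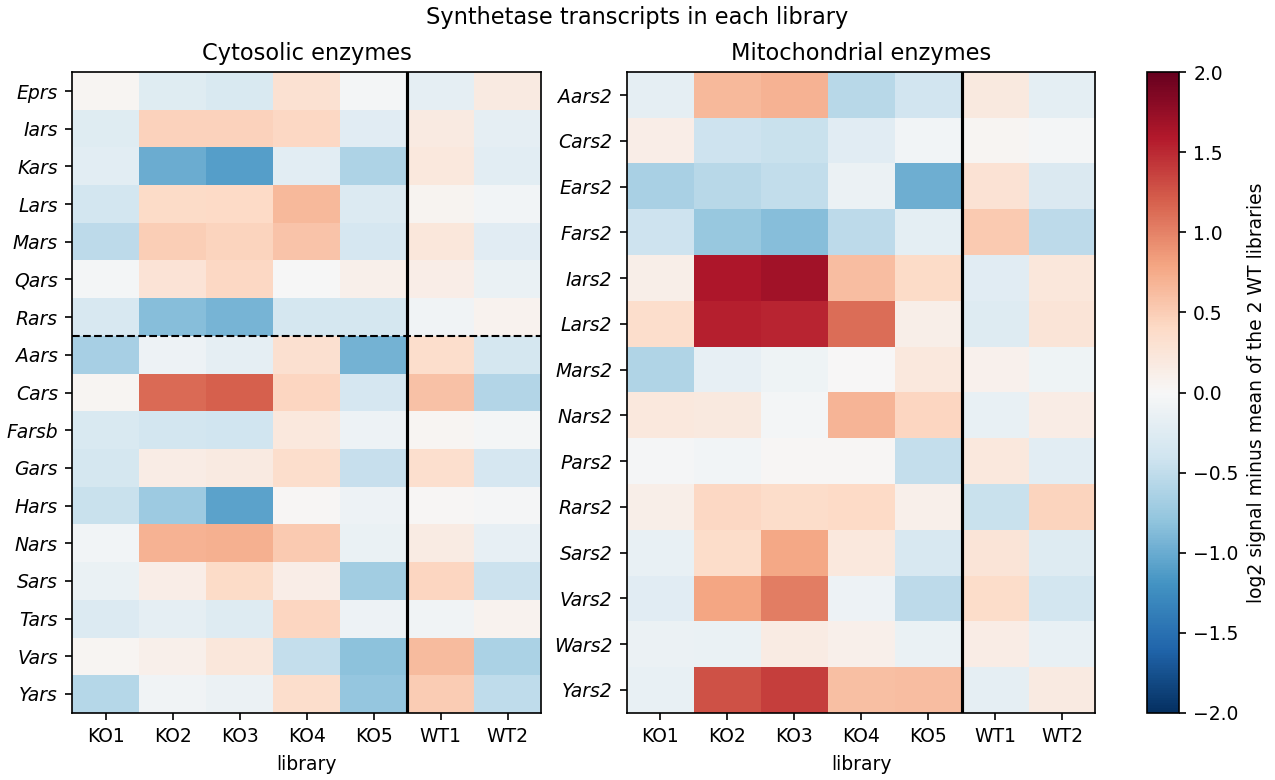
Colour shows the log2 signal of each synthetase gene (rows) in each library (columns, KO knockout and WT wild type) minus the mean of the 2 wild type libraries; cytosolic genes above the dashed line belong to the multi-synthetase complex. Most rows vary within a group as much as between groups, and Iars2, Lars2 and Yars2 are high in KO2 and KO3.

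The cytosolic synthetases were set beside the amino acid response genes, a list of 24 genes known as ATF4 targets or markers of this response, 22 of them tested. The median log2 signal of cytosolic synthetases, relative to the wild type mean, was -0.27, 0.11, 0.18, 0.33 and -0.34 in knockout libraries 1 to 5 and 0.17 and -0.17 in wild type libraries 1 and 2. For the amino acid response genes it was -0.42, 0.79, 0.79, 0.43 and -0.35 in knockout libraries and 0.47 and -0.47 in wild type libraries. For mitochondrial synthetases it was -0.13, 0.27, 0.26, 0.06 and -0.10 in knockout libraries and 0.12 and -0.12 in wild type libraries. All 3 medians were positive in knockout libraries 2, 3 and 4 and wild type library 1, and negative in the other 3 libraries. The signs of the 2 wild type libraries are opposite by construction, since values are taken from the mean of both. The amino acid response genes and the mitochondrial enzymes peaked in knockout libraries 2 and 3, the cytosolic enzymes in knockout library 4. The members differed within the cytosolic set: in knockout libraries 2 and 3, 9 of 17 cytosolic genes were above the wild type mean, against 20 and 19 of 22 amino acid response genes and 6303 and 6579 of all 13120 genes, and Kars, Rars and Hars were at their lowest there. In knockout library 4, 13 of 17 cytosolic genes and 20 of 22 amino acid response genes were above the wild type mean, and 6775 of all genes. Over all genes the medians stayed between -0.05 and 0.05 in every library.

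The wild type libraries also differed from each other in this way. Wild type library 1 was above wild type library 2 for 14 of 17 cytosolic synthetases (82.4%), 9 of 14 mitochondrial ones (64.3%), 20 of 22 amino acid response genes (90.9%) and 56.6% of all genes. The median gap was 0.35, 0.23, 0.94 and 0.10 in the same order. In 20 of 31 synthetase genes (64.5%) this gap exceeded the size of the group difference, as it did in 60.9% of all genes. The cytosolic genes with the C/EBP-ATF core had a median gap of 0.68 (5 genes), against 0.35 in the cytosolic genes whose window lacked it (6 genes). The groups overlapped, from -0.13 for Tars to 1.01 for Yars with the core, and from -0.37 for Eprs to 0.84 for Sars without it. Vars (1.27) and Cars (1.17), with the widest cytosolic gaps, were in neither group. A relation between motif and gap was not tested. Of the bright members of the response list, Psat1, an enzyme of serine synthesis, had 4501, 9431, 8469, 10559.5 and 4499 in knockout libraries, against 10613 and 4930.2 in wild type libraries. Slc7a5 and Slc3a2, which encode the 2 chains of a transporter of large neutral amino acids, were highest in knockout libraries 2 and 3, with 12167 and 12634 for Slc7a5, against 4986 and 2903 in wild type libraries. Asns, encoding asparagine synthetase, did not follow this order (8744, 10599, 9835, 9411 and 6833 in knockout libraries, 6922 and 8495 in wild type libraries).

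None of the 22 response genes passed the threshold between knockout and wild type cells (limma, lowest adjusted p = 0.575; 1 at an unadjusted p under 0.05, against 7.60% of all genes), with 16 positive and 6 negative differences, where 49.7% of all genes were positive, and a median of 0.29, which was -0.14 without knockout libraries 2 and 3. Atf4 itself had 1777.5, 5916, 5284, 5014 and 2095 in knockout libraries, against 3302 and 2096 in wild type libraries. Its difference was 0.44 (SE 0.51, limma adjusted p = 0.748). Transcript level is only part of its control, which acts mainly on translation. Of 10 tested regulators, 0 passed; Ppp1r15b, encoding a constitutive eIF2 phosphatase subunit, had 2209, 6920.2, 7189, 2523 and 2377 in knockout libraries, against 1837 and 1899 in wild type libraries (0.97, SE 0.52, limma adjusted p = 0.575). Myc had 871, 491, 444, 685 and 1024 in knockout libraries, against 1692 and 2168 in wild type libraries (-1.49, SE 0.37, limma adjusted p = 0.575), and Mycn overlapped between the groups (-0.39, SE 0.36).

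**Figure D4:**
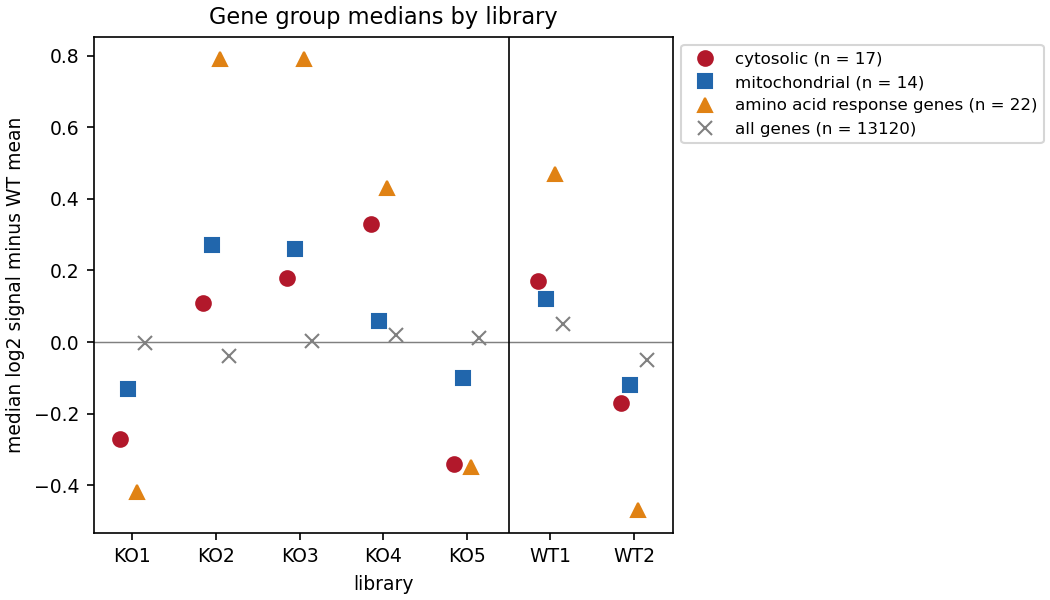
Median log2 signal minus the mean of the wild type libraries (y axis) in each library (x axis, KO knockout and WT wild type) for cytosolic and mitochondrial synthetases, amino acid response genes and all genes. Cytosolic synthetases run from -0.34 in KO5 to 0.33 in KO4, and amino acid response genes from -0.47 in WT2 to 0.79 in KO2 and KO3.

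Mitochondrial enzymes ran from -0.56 to 0.93 by the brightest probe set, and from -0.22 to 0.54 by the mean of all probe sets of a gene. The latter range takes in dim probe sets, among them the one of Ears2 whose size and direction are not read below. The 3 genes with the highest differences by the brightest probe set charge mitochondrial tRNAs for isoleucine, leucine and tyrosine. Iars2 had 1104, 3155, 3303, 1574 and 1329.5 in knockout libraries 1 to 5, against 870.5 and 1192 in wild type libraries (0.88, SE 0.46, limma adjusted p = 0.575). Lars2 had 340.0, 804, 793.5, 592 and 286 in knockout libraries, against 215.0 and 318.0 in wild type libraries (0.93, SE 0.44, limma adjusted p = 0.575). Yars2 had 854, 2306, 2485, 1437 and 1457 in knockout libraries, against 832 and 1069.7 in wild type libraries (0.74, SE 0.41, limma adjusted p = 0.575). Each was highest in knockout libraries 2 and 3; Iars2 and Yars2 overlapped with wild type in knockout library 1, and Lars2 in knockout library 5. Without knockout libraries 2 and 3 the differences were 0.37 (SE 0.28), 0.53 (SE 0.35) and 0.36 (SE 0.31). Second probe sets gave 0.20 for Iars2 and 0.33 for Yars2. A dim one of Lars2 had 90.3, 4.0, 49.8, 122.0 and 110.6 in knockout libraries, against 137.7 and 256.9 in wild type libraries. Its difference was -1.37 (SE 0.63), opposite in sign to that of the brightest probe set. Knockout libraries 2 and 3 were under the level of the signal filter there, and without them the difference was -0.72 (SE 0.33).

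Ears2 and Fars2 had the lowest differences among mitochondrial genes. Ears2 charges mitochondrial glutamate tRNA and also the glutamine tRNA, whose amino acid is then converted by an amidotransferase. Its brightest probe set had 352, 374, 391, 514 and 275 in knockout libraries, against 691 and 454 in wild type libraries (-0.56, SE 0.30, limma adjusted p = 0.575). Its second tested probe set, dim, had 91.2, 143.5, 121.6, 105.6 and 120.3 in knockout libraries, against 3.9 and 62.4 in wild type libraries. That is the synthetase probe set with an unadjusted p under 0.05 (limma adjusted p = 0.575). Both wild type values lie under 64.8, the signal at which the filter was set, so it passed the filter only through the knockout libraries and its size and direction are not read here. Fars2, the single-chain mitochondrial phenylalanine enzyme, had 469.9, 368, 344, 435 and 550.6 in knockout libraries, against 921 and 436.5 in wild type libraries (-0.55, SE 0.34). Wild type library 1 alone stood above the knockout range.

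The remaining mitochondrial genes differed by -0.20 for Cars2 to 0.29 for Nars2, with SE from 0.24 to 0.45. Rars2 had 1943, 2371, 2310.2, 2369 and 1914 in knockout libraries, against 1311.5 and 2422 in wild type libraries, so that all knockout libraries lay within the wild type gap. Sars2, Vars2 and Aars2 were highest in knockout libraries 2 and 3, and their differences of 0.18, 0.19 and 0.05 were -0.08, -0.28 and -0.37 without them. Mars2, Pars2 and Wars2 stood at -0.13, -0.10 and -0.02. Of 16 genes with several tested probe sets, 10 had all differences of the same sign and 6 did not, dim probe sets included, namely Eprs, Qars, Cars2, Ears2, Fars2 and Lars2. For Ears2 this rests on the dim probe set whose direction is not read here.

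Cytosolic minus mitochondrial medians differed by -0.16 between knockout and wild type cells. By library, the cytosolic minus mitochondrial value was 0.27 in knockout library 4. It was -0.14, -0.16, -0.08 and -0.24 in knockout libraries 1, 2, 3 and 5. In wild type libraries it stood at 0.05 and -0.05, which are opposite by construction. The value shrank to -0.03 without knockout libraries 2 and 3. It turned to 0.06 after quantile normalization and to 0.14 without wild type library 1, so the data do not give it a stable direction. Among the 10 pairs of members with the same name apart from the suffix 2, the cytosolic gene had the lower difference in 7 and the higher in 3. Pairs named otherwise, or with a gene outside the members, were not counted. Farsb (-0.19) was above Fars2 (-0.55), and Eprs (-0.05) above Ears2 (-0.56) and Pars2 (-0.10). With genes outside the members, Tars (-0.08) was above Tars2 (-0.38), while Hars (-0.46) was below Hars2 (0.31) and Wars (-1.24) below Wars2 (-0.02). Of the 10 counted pairs, the widest were Yars and Yars2 (-0.23 and 0.74) and Rars and Rars2 (-0.56 and 0.28). In the opposite direction the widest was Cars and Cars2 (0.49 and -0.20). By class, the median difference was 0.14 over 8 cytosolic class I genes and -0.13 over 8 cytosolic class II genes, and without knockout libraries 2 and 3 it was -0.06 and -0.17.

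Other genes of tRNA charging gave 0 calls among 16 tested (limma, lowest adjusted p = 0.575; 3 at an unadjusted p under 0.05, against 7.60% of all genes), with 5 positive and 11 negative differences, where 49.7% of all genes were positive. Their median was -0.28, and -0.14 without knockout libraries 2 and 3. The scaffold genes of the multi-synthetase complex, Aimp1, Aimp2 and Eef1e1, differed by -0.45 (SE 0.33), -0.71 (SE 0.34) and -0.22 (SE 0.39), and all 3 were lowest in knockout libraries 2 and 3. Wars, the cytosolic tryptophan enzyme, also known as an interferon-induced gene, had 939.7, 873, 794.5, 678 and 743 in knockout libraries, against 3098 and 1192 in wild type libraries (-1.24, SE 0.37, limma adjusted p = 0.575). The groups did not overlap, and the wild type libraries themselves differed by 1.36. With Wars, 4 of these 16 genes had no overlap between groups, 2 lower in knockout and 2 higher, where the backgrounds are 7.44% and 6.41%. The others were Gatb (-0.58, SE 0.25), lower in knockout, and Hars2 (0.31, SE 0.30) and Qrsl1 (0.43, SE 0.26), higher in knockout. Hars2 had 430, 675, 713, 461 and 434 in knockout libraries 1 to 5, against 422.5 in both wild type libraries. Its groups were thus barely apart, and knockout libraries 2 and 3 were the high ones. Qrsl1 and Gatb encode subunits of the same mitochondrial amidotransferase that completes glutamine tRNA charging, and they lay on opposite sides of the wild type values. These 3 genes, Tars2 and Myc were picked once their values were known.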

How the data were processed

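Gene expression was measured on 7 Affymetrix Mouse 430 2.0 arrays, 5 of calreticulin knockout and 2 of wild type cells, grouped and numbered by their titles. The deposited values are linear signal intensities, for which the submitters' processing notes name MAS5, with no version. Every array had a mean intensity of 500.0 over all but its 2% brightest and 2% dimmest probe sets, so the deposited values are already scaled. The table holds no detection calls, and the number of arrays limits precision. Levels of different probe sets were not compared.

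Intensities were converted to log2(signal + 20.2), the 20th percentile of all values. Of 45101 probe sets 64 controls were set aside, and 27022 with a mean above the 40th percentile were fitted with limma 3.58.1 in R 4.3.3 (eBayes with a trend, two-sided, Benjamini-Hochberg adjusted p under 0.05 over all of them, no covariates). The fit was tested on simulated data. A gene is given by its brightest tested probe set with a single symbol (13120 genes), and SE is limma's moderated standard error. All 31 genes matched RefSeq.

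The members, gene lists and alternatives were chosen with earlier results of these data known. All synthetases could be named; from each other list, called genes and up to 4 bright ones, with Calr, Farsa and Wars. Alternatives were 2 normalizations, pseudocounts of 1 and 50, no filter and one at the 60th percentile, no trend, array weights, other rules for probe sets, a block for the replicate number, and each library or knockout libraries 2 and 3 left out.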

Additional observations from a re-analysis of the deposited data

Results flagged for a closer look

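Among the 5 knockout libraries, 2 of 31 synthetase genes had a library far from the others on the log2 scale, where chance alone flags about 1 in 20 groups. The count is near that rate, and the share over all genes is not given here. That rate also takes the 5 libraries as independent, while knockout libraries 2 and 3 correlated at 0.985. The 2 genes are therefore listed without being read as a result. For Tars, knockout library 4 was the high one, and its gap to the nearest library was 0.762 of the whole range, above Dixon's limit of 0.71 for 5 values. For Pars2, knockout library 5 was the low one at 244, against 336.6 to 356 in the other knockout libraries, with a gap of 0.851 of the range. The cause was not tested.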

How the results depend on the processing

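No synthetase probe set passed the threshold in the main setting or in any of the 19 alternatives, 7 of which left out a single library. Over the whole array the number of called probe sets, 8 in the main setting, was 15 with the replicate block, 5 without a filter or without knockout libraries 2 and 3, 4 with the filter at the 60th percentile, 2 with 1 value per gene (by either rule), and 0 to 7 with a library left out (0 without wild type library 1 or 2). The replicate numbers are not stated to pair libraries. Deviations of libraries numbered 1 and 2 correlated at 0.11 and -0.01, and with the replicate block the cytosolic and mitochondrial medians were -0.10 and 0.15.

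The cytosolic median ran from -0.23 to 0.27 with a library left out (0.27 without wild type library 1), the mitochondrial median from -0.16 to 0.21, and their difference from -0.31 to 0.14. The difference was 0.06 after quantile normalization. The median of all tested probe sets was 0.07, and moved to -0.05 with array median centring and to -0.03 with quantile normalization.

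Of 31 genes 12 kept their sign in every alternative. With quantile normalization the sign turned for Eprs (0.04), Gars (0.16), Sars (0.04), Tars (0.02) and Aars2 (-0.09), and with median centring for Aars2 (-0.07). With array weights it turned for Mars (-0.05), Aars2 (-0.16), Sars2 (-0.01) and Vars2 (-0.10). With the mean of all probe sets the sign turned for Eprs (0.17), Ears2 (0.52) and Lars2 (-0.22). The Ears2 value takes in the dim probe set that passed the filter only through the knockout libraries, so its turn is not read. With the replicate block the sign turned for Mars (-0.01) and Vars (0.08). Without knockout libraries 2 and 3 it turned for Eprs (0.10), Iars (-0.02), Lars (-0.0002), Mars (-0.10), Tars (0.02), Aars2 (-0.37), Sars2 (-0.08) and Vars2 (-0.28). Mars2 was under the filter at the 60th percentile, so it has no value there. The cause was not tested.

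With single libraries left out, ranges that crossed 0 were -0.66 to 0.04 for Aars, -0.09 to 1.07 for Cars, -0.23 to 0.14 for Eprs, -0.37 to 0.31 for Gars, -0.09 to 0.36 for Mars, -0.46 to 0.38 for Sars, -0.82 to 0.45 for Vars and -0.74 to 0.27 for Yars. For mitochondrial genes they were -0.15 to 0.24 for Aars2, -0.32 to 0.11 for Pars2, -0.16 to 0.72 for Rars2, -0.09 to 0.44 for Sars2, -0.18 to 0.56 for Vars2 and -0.17 to 0.12 for Wars2.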
